A study of Rattus norvegicus with 9 samples.

Results

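A set of 28 transcripts was absent or at trace level in untreated PC12 cells, present in all 3 libraries of cells given erastin, and absent or at trace level again when PQR NPs were given with erastin. They were chosen from 41078 transcripts in the table, of which 25127 had a count in any library, by a rule on CPM (a transcript's count as a share of the library total, scaled to the same total in every library): under 0.2 CPM in each of the 3 control and 3 co-treated libraries and 1 CPM or more in each of the 3 erastin libraries. PC12 is a rat line from a tumour of the adrenal medulla, labelled wild type and described as neuron-like, and all groups are this 1 line. The control group was untreated, the erastin group received erastin as the model of cell damage (PD model in the design text), and the third group received erastin and PQR NPs, a nanodelivery system. The sources used here do not give doses, times or the make-up of the particles. They also leave unsaid whether libraries of 1 group are separate cultures, so the spread between them may be technical.

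Erastin inhibits the cystine/glutamate antiporter. Cystine is a source of cysteine for glutathione, which the cell uses to detoxify lipid peroxides, and cells short of it can die by ferroptosis, the iron-dependent death that follows lipid peroxidation. Cells under such stress are known to switch on oxidative stress and amino acid response genes. Whether any of the 28 transcripts belongs to those genes is not shown here: the table lists Ensembl transcript IDs and no symbols, and the gene, promoter and miRNA tables used here held 0 of the 41078. The transcripts are therefore described by their rank, from 1 for the highest to 28 for the lowest mean CPM with erastin. For the same reason the markers of PC12 cells were not checked. Each value is of a single transcript, and the other transcripts of its gene are not included in it.

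All 9 libraries went into the rule, so the levels below describe the chosen transcripts, and no test is used to support them. How reads were divided among the transcripts of a gene is unknown here, and absence or presence of a single transcript can depend on it. Library totals ran from 34772755 to 40826754 counts, and the 3 erastin libraries were the smallest, at 37170587, 34994411 and 34772755. In counts, the lower limit let a transcript have at most 7 or 8 reads in a control or co-treated library, and the upper limit asked for at least 35 to 38 in an erastin library. Where no read was counted in a control or co-treated library, up to 3 counts remain possible, or 0.0735 to 0.0800 CPM, from counting error alone. In bulk RNA, a transcript used by a few cells at a high level and by many cells at a low level cannot be told apart, nor can fewer cells of a type and less RNA per cell.

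Together the 28 transcripts took 515, 653 and 586 CPM in the erastin libraries (585 ± 69.4 CPM, SD, n = 3), which is 0.0585% ± 0.00694 of all counts. In the control libraries they summed to 0.693, 0.945 and 1.15 CPM, and in the co-treated libraries to 1.15, 1.05 and 1.15 CPM. As numbers of reads, these sums were 19131, 22865 and 20361 with erastin, 26, 37 and 44 in control, and 45, 43 and 45 under co-treatment. The summed traces of the control and co-treated groups overlapped. Most of the erastin signal was in few transcripts: the highest one made up 60.0%, 55.0% and 49.9% of the sum in the 3 libraries, and the 5 highest made up 85.9%, 88.3% and 84.9%.

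**Figure D1:**
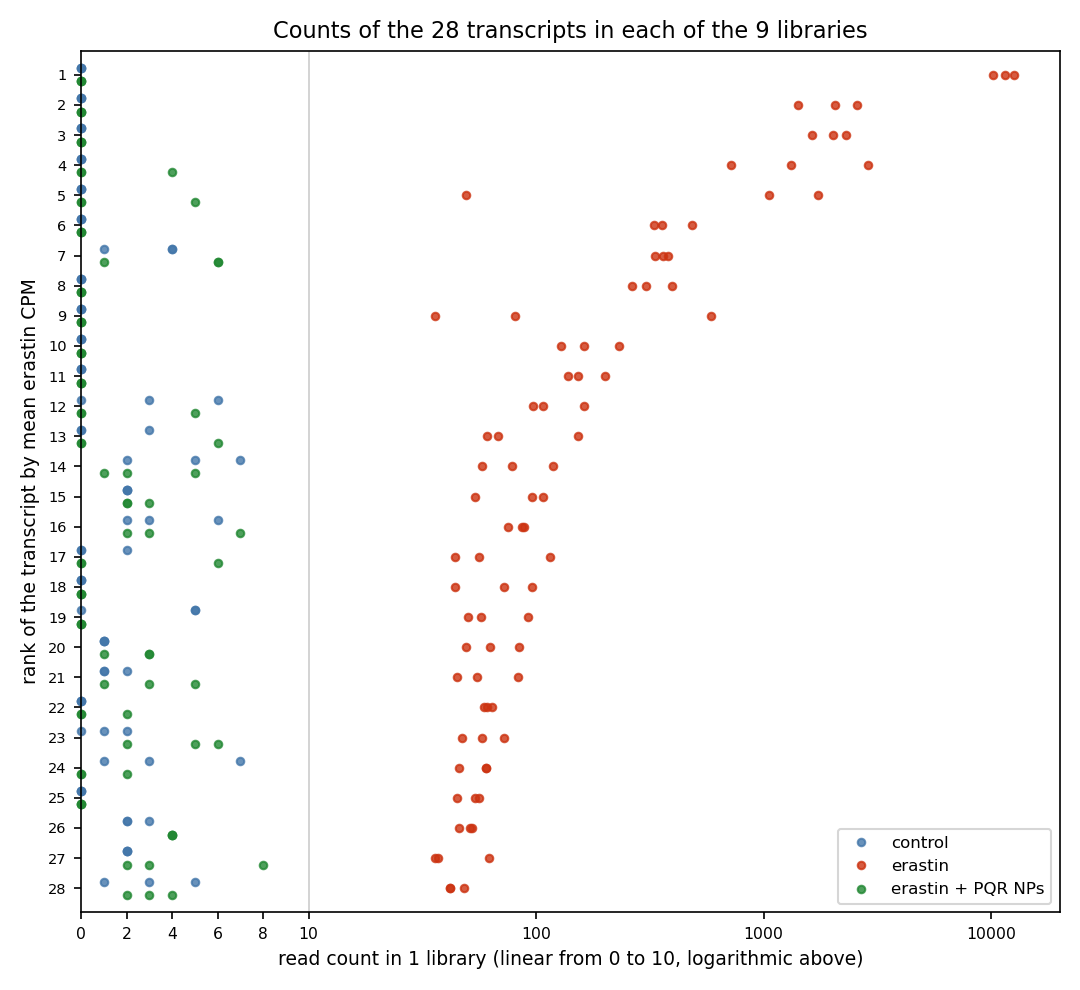
Read counts of the 28 transcripts (vertical axis, rank by mean CPM with erastin) in the 3 control, 3 erastin and 3 co-treated libraries, 1 point per library, on an axis that is linear from 0 to 10 and logarithmic above. All control and co-treated points lie at 8 counts or fewer, as the rule required, while the erastin points run from 36 to 12576 counts.

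The first transcript, ENSRNOT00000084595, had 11480, 12576 and 10153 counts in the erastin libraries, or 309, 359 and 292 CPM, and no count in any of the other 6 libraries. With erastin it was the transcript of abundance rank 483 in the whole table. Its erastin mean was at least 4084-fold above control and at least 4243-fold above the co-treatment, with 3 counts per library taken for the libraries at 0. It thus went from below detection into the upper part of the expressed transcripts, with a coefficient of variation (CV, the SD over the mean) of 11.0% over the 3 erastin libraries. The second, ENSRNOT00000003558, had 2561, 1408 and 2061 counts (68.9, 40.2 and 59.3 CPM) with erastin and none elsewhere, at least 716-fold above control. At rank 3 the counts were 1627, 2294 and 2021 (43.8, 65.6 and 58.1 CPM), again with none elsewhere and at least 712-fold above control. Ranks 2 and 3 had nearly the same mean, 56.1 ± 14.6 and 55.8 ± 11.1 CPM (SD, n = 3), and their erastin libraries overlapped. Their order therefore means nothing beyond the spread.

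The next transcripts, of ranks 4 and 5, were high on average but uneven between the erastin libraries. Rank 4 had 720, 2861 and 1315 counts with erastin (19.4, 81.8 and 37.8 CPM), none in control, and 0, 4 and 0 counts under co-treatment. Its mean was 46.3 ± 32.0 CPM (SD, n = 3), and 28.6 CPM without erastin library 2. Rank 5 had 49, 1054 and 1740 counts with erastin (1.32, 30.1 and 50.04 CPM), none in control, and 5, 0 and 0 counts under co-treatment. Library 1 was the low one here and only just met the rule, so that the highest library was 38.0-fold above the lowest. The mean of rank 5 was 27.2 ± 24.5 CPM (SD, n = 3), and 15.7 CPM without erastin library 3.

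Between 4 and 11 CPM there were 6 transcripts, ranks 6 to 11, of which 5 had no count outside the erastin libraries. Rank 6 had 482, 357 and 330 counts with erastin (10.9 ± 1.84 CPM, SD, n = 3), at least 139-fold above control. The exception was rank 7, with 381, 362 and 332 counts with erastin, 4, 4 and 1 in control and 6, 1 and 6 under co-treatment. It was the steadiest of all 28 over the erastin libraries, at 10.3, 10.3 and 9.55 CPM (CV 4.33%), and it had counts in every library of the series. Its erastin level was 128-fold that in control (95% interval 67.3 to 281, exact, counting error only) and 92.3-fold that under co-treatment (53.7 to 174). So rank 7 had at least 1 read in each library of the untreated group, a trace rather than a 0.

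Rank 8 had 265, 394 and 305 counts with erastin (9.05 ± 2.08 CPM, SD, n = 3) and none elsewhere. Rank 9 had 81, 36 and 585 counts (2.18, 1.03 and 16.8 CPM) and none elsewhere, and it had the highest CV of the set, 132%. Its place rested on erastin library 3, as the mean was 6.68 CPM with that library and 1.60 CPM without it. Ranks 10 and 11 had 129, 162 and 232 counts and 138, 200 and 153 counts, none of them elsewhere, which put them at least 62.8-fold and 58.8-fold above control. The erastin libraries of these overlapped, so ranks 10 and 11 were not ordered beyond their spread.

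The remaining 17 transcripts, ranks 12 to 28, had mean erastin levels from 3.41 down to 1.24 CPM, and most had traces outside the erastin group. Rank 12 had 163, 97 and 107 counts with erastin, 0, 6 and 3 in control and 0, 5 and 0 under co-treatment. Its ratio to control was 43.8 (95% interval 22.8 to 96.6, exact, counting error only). Rank 16 was among the steady ones, with 87, 88 and 75 counts with erastin against 2, 3 and 6 in control and 7, 2 and 3 under co-treatment. Rank 17 was uneven, with 44, 56 and 115 counts with erastin, 2, 0 and 0 in control and 0, 0 and 6 under co-treatment. Only ranks 18 and 25 in this range had no count at all outside erastin, with 96, 72 and 44 counts and 56, 45 and 54 counts. These were at least 25.1-fold and 18.5-fold above control.

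At the foot of the list, the counts were small on both sides. Rank 26 had 46, 51 and 52 counts with erastin, 2, 2 and 3 in control and 4, 4 and 4 under co-treatment. Rank 27 had 62, 37 and 36 counts with erastin, 2, 2 and 2 in control and 3, 8 and 2 under co-treatment. With 42, 42 and 48 counts, rank 28 stood 15.8-fold above its control level (95% interval 8.05 to 35.2, exact, counting error only), the smallest control ratio among those with control counts. Presence only with erastin thus rested, for these, on 36 to 62 reads per erastin library against at most 8 elsewhere.

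The rule cut through a continuous range of values. Just inside its upper limit, ranks 9, 27 and 28 had 1.03, 1.04 and 1.13 CPM in their lowest erastin library. Just outside, the nearest 3 transcripts had 0.978, 0.972 and 0.943 CPM there. Inside the lower limit, ranks 27, 14 and 24 reached 0.196, 0.187 and 0.183 CPM in their highest control or co-treated library, and the nearest transcripts outside it reached 0.204, 0.240 and 0.255 CPM. A lower limit of 0.1 CPM left 14 transcripts, and one of 0.5 CPM let in 62. With every library thinned to 34772755 counts, the smallest total, 27 of the 28 remained, and rank 27 was lost.

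The transcripts that met the rule were of different kinds: 10 had no count in any of the 6 other libraries, and 18 had a trace in at least 1. Those at 0 were ranks 1, 2, 3, 6, 8, 9, 10, 11, 18 and 25, with a median erastin mean of 7.87 CPM, and 6 of the 10 were at 5 CPM or more. The 18 with traces had a median of 1.95 CPM, with 3 at 5 CPM or more. So the transcripts at 0 outside erastin were, in this set, often the higher ones with it. The traces were spread over both groups: 14 transcripts had counts in both, 3 (ranks 4, 5 and 22) under co-treatment alone and 1 (rank 19) in control alone. Of the 84 values in each group, 46 were 0 in control and 47 were 0 under co-treatment, and 9 transcripts had a count in all 6 libraries.

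The traces were a few reads in either group. The mean was higher under co-treatment for 13 transcripts and higher in control for 5, and the other 10 were at 0 in both. Rank 23 had 1, 0 and 2 counts in control and 2, 5 and 6 under co-treatment. In the other direction, rank 19 had 0, 5 and 5 counts in control and 0, 0 and 0 under co-treatment, and rank 24 had 1, 3 and 7 against 0, 2 and 0. Since the rule held both groups under 0.2 CPM, nothing larger could appear, and differences of this size are a few reads.

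**Figure D2:**
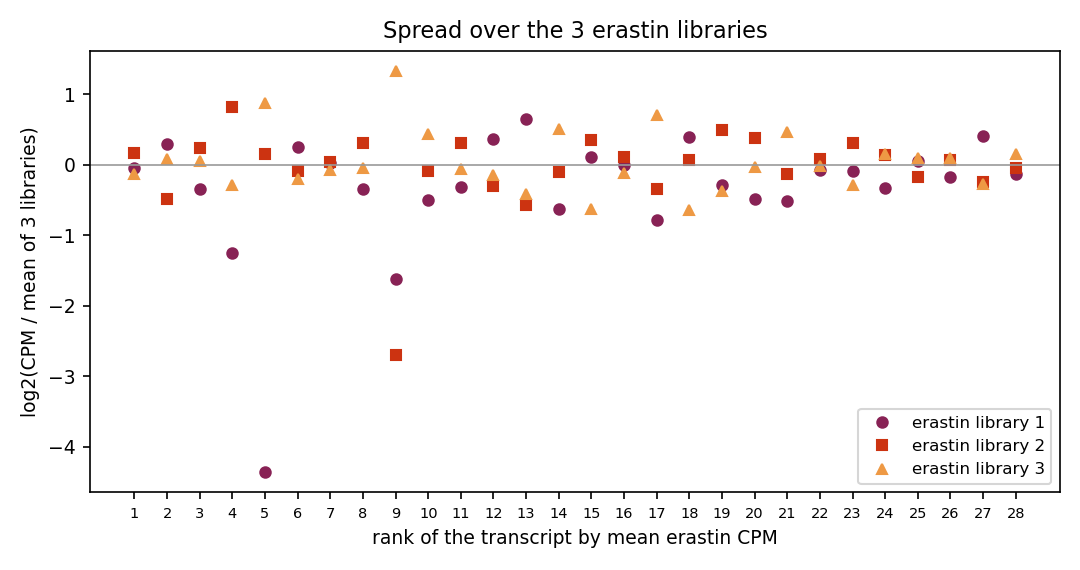
The log2 of each erastin library's CPM over the mean of the 3 libraries, for the 28 transcripts in order of rank, with 1 symbol per library. Most points lie within 1 unit of 0, library 1 for ranks 4, 5 and 9 and library 2 for rank 9 lie below that, and library 3 for rank 9 lies above it.

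Presence in all 3 erastin libraries did not mean an even level in them. The CV over the erastin libraries had a median of 25.6% over the 28 transcripts and ran from 4.33% (rank 7) to 132% (rank 9). Over all 13378 transcripts at 1 CPM or more in every erastin library the median was 11.7%, but these were more abundant, with a median level of 25.6 CPM against 2.40 CPM. Among transcripts under 20 CPM, the median CV was 25.1% for the 23 of the set and 16.2% for all 5893. From 20 CPM up it was 25.99% for the 5 of the set and 9.07% for all 7485. Levels were not matched under 20 CPM, with a median of 2.03 CPM for the 23 against 7.35 CPM for all, while from 20 CPM up they were 55.8 and 57.2 CPM. No test was made of these differences.

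The highest erastin library was 2-fold or more above the lowest in 7 of the 28 and in 7.67% of all 13378, and under 20 CPM in 21.7% of the 23 and in 12.8% of all 5893. A 10-fold gap was seen in ranks 5 and 9 and in 0.321% of all. These gaps did not follow 1 library throughout. Library 1 held the lowest value of 14 transcripts, library 2 of 5 and library 3 of 9, and the highest value fell in library 1 for 6, in library 2 for 12 and in library 3 for 10. Across the 28, Spearman's rho of the levels was 0.736 between libraries 1 and 2, 0.594 between 1 and 3 and 0.696 between 2 and 3, against 0.972 to 0.981 over all 13378. Pearson's r of log2 CPM was 0.876, 0.820 and 0.907 for the same pairs, against 0.970 to 0.979. These are descriptions over transcripts that share their libraries and depth. The levels were not matched: 39.3% of the 28 had an erastin mean under 2 CPM, against 4.12% of all 13378. No correlation was computed at matched levels, so the lower values for the 28 cannot be separated from their lower levels.

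The spread over the erastin libraries was near counting error in part of the set. The variance of the 3 erastin counts around equal shares was under 2 times what counting alone gives in 7 transcripts (ranks 7, 16, 22, 24, 25, 26 and 28), from 2 to under 10 times in 9, and 10 times or more in 12. The highest were ranks 5 and 4, at 814 and 802 times. Rank 22 was the lowest at 0.193 times, with 61, 64 and 59 counts with erastin, none in control, and 0, 2 and 0 under co-treatment. For ranks 1 to 6, the best covered ones, it was 11.2 times or more.

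**Figure D3:**
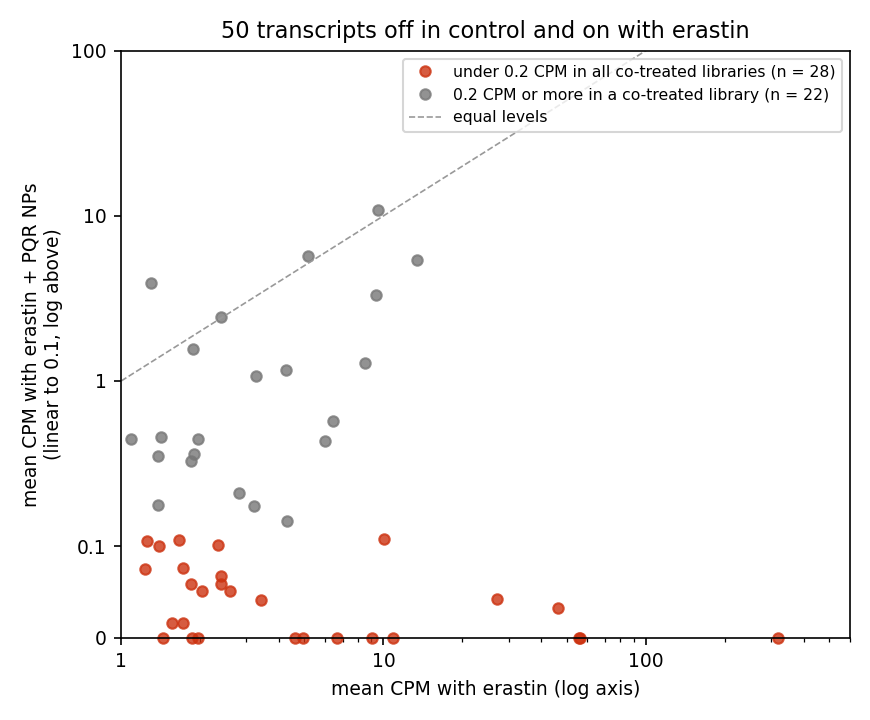
Mean CPM with erastin (horizontal, log axis) and with erastin plus PQR NPs (vertical, linear to 0.1 and logarithmic above) of the 50 transcripts under 0.2 CPM in every control library and at 1 CPM or more in every erastin library. The 28 under 0.2 CPM in all co-treated libraries lie along the floor and include the 5 with the highest erastin means, while 4 of the 22 others lie on or above the dashed line of equal levels.

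Part of the transcripts present with erastin and not in control were also missing under co-treatment, and part were not. Without the condition on the co-treatment, 50 transcripts were under 0.2 CPM in all control libraries and at 1 CPM or more in all erastin libraries. Of these 50, 28 (56.0%) were under 0.2 CPM in all 3 co-treated libraries, 4 (8.00%) were at 1 CPM or more in all 3, 6 were at 1 CPM or more in some, and 12 lay between. The 5 transcripts with the highest erastin means were all among the 28. The share of 56.0% was no stable majority: over 14 alternatives it ran from 31.4% to 60%, above 50% in 8 and at or under it in 6. It was 43.8%, 44.1% and 31.4% without control library 1, 2 or 3, 47.9% without erastin library 1, 47.8% with 2 CPM as the upper limit and 50% with 0.5 CPM as the lower one. Leaving out a control library drops its condition, so the total rose from 50 to 73, 68 and 102. The added transcripts were at 0.2 CPM or more in the control library left out. Without control library 3 there were 102 such transcripts, of which 32 were off in all co-treated libraries and 13 were on in all of them, and without control library 1 there were 7 on in all. The set of 28 itself could only grow in this way, and was 32, 30 and 32 without control library 1, 2 or 3.

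The 22 that stayed outside the set had a median erastin mean of 3.01 CPM, against 2.40 CPM for the 28, and reached at most 13.4 CPM, below the 5 highest of the 28. Their co-treated mean was a median 0.264 of their erastin mean, under 0.1 of it in 5 and above it in 4. One of those above it had 267, 240 and 505 counts with erastin, 436, 451 and 411 under co-treatment and 1, 1 and 1 in control. Another had 55, 44 and 40 counts with erastin and 191, 138 and 139 under co-treatment, against 6, 5 and 0 in control. The highest of the 22 had 314, 773 and 341 counts with erastin, none in control, and 165, 488 and 0 under co-treatment. That last pattern, on in some co-treated libraries and off in others, was seen in 3 of the 22, and in each of them the third co-treated library was the one at 0.

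In the mirror case, 48 transcripts were under 0.2 CPM in all co-treated libraries and at 1 CPM or more with erastin. The same 28 were off in control too (58.3%), 2 were on in all control libraries, and 9 were on in some control libraries and off in others. Both selections share the erastin libraries, so they are not independent.

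**Figure D4:**
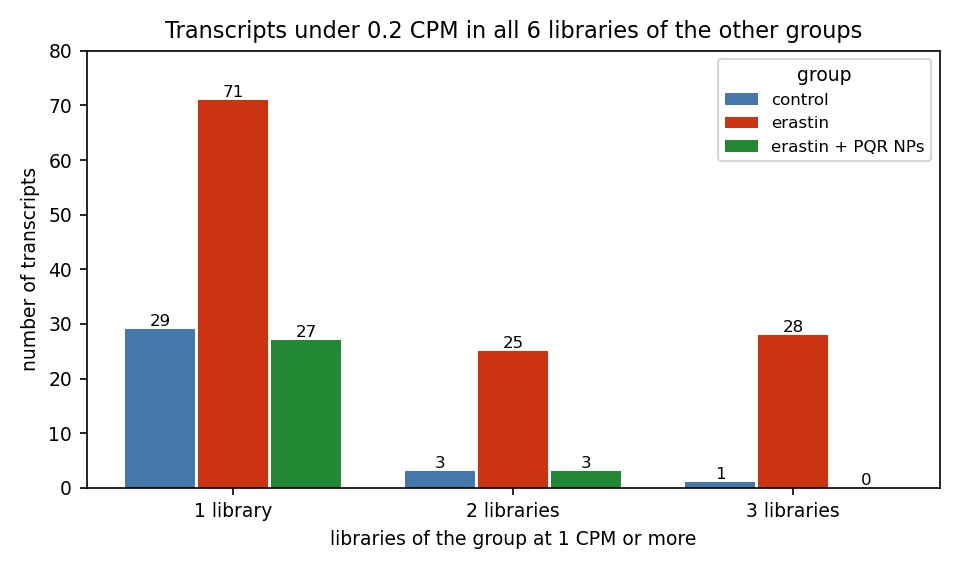
Number of transcripts under 0.2 CPM in all 6 libraries of the other groups, by how many libraries of the named group had them at 1 CPM or more. For erastin the bars stand at 71, 25 and 28, for control at 29, 3 and 1, and for the co-treatment at 27, 3 and 0.

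The same rule turned to the other groups found almost nothing. Only 1 transcript was present in all control libraries alone, at a mean of 2.07 CPM, and 0 in all co-treated libraries alone. Left-out libraries gave 1 to 3 for control (2 without control library 2 or co-treated library 2, and 3 without control library 3) and 0 to 2 for the co-treatment (1 without control library 2, erastin library 2 or co-treated library 2, and 2 without erastin library 3 or co-treated library 3). For erastin the number was 28 to 39, with 34, 36 and 39 when erastin library 1, 2 or 3 was left out. A left-out library takes its condition with it, so none of these numbers could fall. Of the 28, 7 were at a mean of 10 CPM or more, a level reached by 0 in the other groups.

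Partial presence was more frequent than full presence, also with erastin. Besides the 28, 25 transcripts were under 0.2 CPM in all control and co-treated libraries and at 1 CPM or more in 2 erastin libraries, and 71 in 1. Full presence was therefore 22.6% of the 124 transcripts on in any erastin library, against 3.03% of 33 for control. Single-library transcripts were 14, 28 and 29 in the 3 erastin libraries, 8, 6 and 15 in control and 11, 6 and 10 under co-treatment. They reached 22.1 CPM in erastin library 2 and 38.4 CPM in co-treated library 2, and were by choice under 1 CPM in the other libraries of their group. Among the 25 on in 2 erastin libraries, the one that fell short was library 1 for 6, library 2 for 8 and library 3 for 11, and 1, 3 and 4 of these were under 0.2 CPM there.

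Fewer transcripts met the rule for loss with erastin alone than the rule for gain. Of 12705 transcripts at 1 CPM or more in all 6 control and co-treated libraries, 5 were under 0.2 CPM in all 3 erastin libraries. The 28 gained were from 22473 transcripts under 0.2 CPM in those 6, which include transcripts with no count in any library. The rules are not symmetric, as loss asked for 1 CPM or more in 6 libraries and gain in 3. With 0.5 CPM as the lower limit the numbers were 25 lost and 62 gained. By the same count, 4 transcripts were off in control alone and 2 under co-treatment alone. The 4 are those given above as off in control, on with erastin and on in all co-treated libraries. They were thus at trace level in untreated cells, under 0.2 CPM with a few reads in at least 1 control library, and not lost from them. The 2 are those of the mirror case that were on in all control libraries. These few rose when single libraries, and with them their conditions, were left out. Loss with erastin was 8, 14 and 11 without erastin libraries 1, 2 and 3 and 8 without control library 1. Transcripts off in control alone were 7 and 13 without control libraries 1 and 3. Those off under co-treatment alone were 4 without erastin library 2 and 7, 4 and 5 without co-treated libraries 1, 2 and 3.

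In the fit across all transcripts (edgeR's quasi-likelihood test, Benjamini-Hochberg adjusted p under 0.05), 28 of the 28 were called higher with erastin than in control, where 26.6% of the 17123 transcripts tested were. For the co-treatment against erastin 28 of the 28 were called lower, where 25.9% were. The rule used both contrasts, which share the erastin libraries, so these counts add nothing to the choice. All 28 passed the filter on low counts through the erastin libraries, as none reached its level of 0.262 CPM in any other library. For the co-treatment against control 0 of the 28 were called by edgeR (16.9% of all tested), with 2 at an unadjusted p under 0.05 and 1 called by DESeq2, and the rule held both groups near 0. The 2895 calls behind this 16.9% became 1665 with control library 2 left out, and 1853, 1325 or 1636 with co-treated library 1, 2 or 3 left out. That they were not called does not show that the groups were alike.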

How the data were processed

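The authors deposited 1 table of raw counts, whole numbers per Ensembl rat transcript (41078 rows) and library (9 columns), not normalized. The submitters' processing notes name HISAT2 (version 2.2.1) and the build Rnor 6.0. The counting program, annotation release, use of strand and division of reads among transcripts of a gene: not given in the sources used here. Poly(A) RNA was sequenced as paired ends after PCR, per the labels' protocols, with no molecular identifiers named, so bounds and intervals cover counting error only. Columns were assigned to libraries by their titles.

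CPM were computed on total counts, and the rule was applied to them (Python 3.11.15, pandas 2.3.3). The transcripts and lists were chosen with earlier results of these data known. A fold against a group at 0 used 3 counts per library. Other ratios are of pooled CPM with an exact 95% interval. The fit used edgeR 4.0.16 in R 4.3.3 on all 9 libraries with TMM scaling and edgeR's filter, and was tested on simulated data; DESeq2 1.42.0 was an alternative. Transcripts described one by one were to be the first 25 by mean erastin CPM if named. As they had no names, 2 are given by ID and others by rank, with those nearest the limits and those with the widest spread or the highest traces; ranks 12, 16, 17, 18, 19, 22, 23, 25 and 26 and the transcripts outside the set were picked after their values were seen. The lists of PC12 markers, of NRF2 and ATF4 targets and of markers of other cell types hold gene names. They could not be looked up, as 0 IDs were paired with a name.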

Additional observations from a re-analysis of the deposited data

How the results depend on the processing

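The limits of the rule set the size of the group. With the lower limit at 0.1 CPM, at 0.5 CPM or at no count, 14, 62 and 10 transcripts met it, and with the upper limit at 0.5, 2 or 5 CPM 54, 11 and 7 did. In the same order the median of the mean erastin CPM was 5.801, 1.99, 7.87, 1.42, 10.05 and 46.3, against 2.40. The share of counts was 0.0663% at 0.5 CPM below, 0.0472% with no count below and 0.0508% at 5 CPM above, against 0.0585%, and those at 0 elsewhere were 5 at 5 CPM, against 10. With limits of 0.1 CPM below, 0.5 CPM below and 2 CPM above, transcripts off in control and on with erastin were 27, 124 and 23 (50 in the report), those also on in all co-treated libraries 2, 8 and 2 (4), and those off in control alone 2, 8 and 2 (4). Off with erastin alone were 25 at 0.5 CPM below and 3 at 2 CPM above (5), off under co-treatment alone 1 at 2 CPM above (2), on in control alone 0 at 2 CPM above (1), and on under co-treatment alone 2 at 0.5 CPM below (0). TMM-adjusted totals gave 29 and thinning 27.

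When each library was left out in turn, its condition was dropped too, so numbers of transcripts meeting a rule could not fall. Such numbers therefore do not show that the set is stable. The 28 were 28 to 39, those at 0 elsewhere 10 to 14, the share 0.0570% to 0.0712% and the median 2.16 to 2.50 CPM. Transcripts off in control and on with erastin were 50 to 102 and those on in all co-treated libraries 4 to 13. On in 1 group alone were 1 to 3 for control and 0 to 2 for the co-treatment, and off in 1 group alone 4 to 13 for control, 5 to 14 for erastin and 2 to 7 for the co-treatment. The means of ranks 4, 5 and 9 moved by over 1.5 times, to 28.6 CPM without erastin library 2 and to 15.7 and 1.60 CPM without erastin library 3.

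For all transcripts, those called higher with erastin were 4042 to 4606 without 1 library (4558), those lower with the co-treatment than with erastin 3792 to 4503 (4437), and those called between co-treatment and control 1325 to 2988 (2895). The replicate numbers did not pair the libraries (correlations of equal numbers from -0.0126 to 0.111). With the number as a replicate block, 4459, 4348 and 2723 were called. Traces under about 8 reads set what the depth can show.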
